A study of Mus musculus with 5 samples.

Results

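The cytosolic ribosomal protein genes were described in colon RNA from mice with chemically induced colitis. Members were protein-coding genes whose symbol began with Rpl or Rps followed by a digit, together with Rplp0, Rplp1, Rplp2 and Rpsa. Pseudogenes and the Rps6k kinases were left out. The rule found 86 genes among the 55471 in the files. They comprised 46 proteins of the large subunit, 31 proteins of the small subunit, 8 paralogs of such proteins, and Rps19bp1, which is named after a binding partner and is not itself a ribosomal protein. The 77 large- and small-subunit genes are called core genes here. Another 7 symbols of the same pattern carried a pseudogene biotype in the annotation and were not members.

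Both groups were male C57BL/6 mice, 11 weeks old, whose colons were taken 3 days after induction of colitis with TNBS, a hapten that is instilled to provoke acute inflammation of the bowel wall. The propyzamide group (3 libraries) had been given propyzamide, a herbicide, and the vehicle group (2 libraries) had been given vehicle. All mice had colitis, so no value here describes an uninflamed colon. The dose and the colon segment were not given in the sources used here. Nothing in the labels says that the libraries came from separate animals, and the p-values therefore measure the spread between these libraries only.

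Ribosomal proteins coat the ribosomal RNA of the ribosome. The small subunit holds the messenger RNA and reads its codons, and the large subunit joins amino acids and threads the new chain through its exit tunnel. The genes are expressed in every cell, and most of their messenger RNAs begin with a terminal oligopyrimidine (TOP) tract, a C followed by a run of C and T, through which growth signalling controls their translation. In the colon, dividing crypt cells and secretory cells make many ribosomes.

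TOP starts of 7 core genes are shown because the tract is the sequence feature that the family is known to share and because these genes lie at the top, the middle and the bottom of the range of values described below. Each line gives the last 10 bases before the annotated start and the first 20 bases from it, with the tract in capitals (RefSeq, GRCm38.p6).
Rps21 (chr2:180257369-180257398, plus strand): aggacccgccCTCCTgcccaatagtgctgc
Rpl38 (chr11:114668570-114668599, plus strand): aagcctcgttCTTTCCCCgttctcttcggt
Rpl35a (chr16:33056472-33056501, plus strand): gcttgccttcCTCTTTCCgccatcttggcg
Rplp2 (chr7:141447641-141447670, plus strand): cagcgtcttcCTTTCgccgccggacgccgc
Rps27 (chr3:90213629-90213658, minus strand): cgctttcgctCCTTTCCggcggtgacgacc
Rps6 (chr4:86857348-86857377, minus strand): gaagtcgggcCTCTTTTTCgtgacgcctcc
Rpl28 (chr7:4792955-4792984, plus strand): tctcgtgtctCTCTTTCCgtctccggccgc

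Promoter sequence was matched by symbol for 57 of the 77 core genes. A start was counted where the annotated first base was C and at least 4 further bases, each C or T, followed it on the strand of the gene. It was found in 13 of the 67 promoters of core genes (19.4%), against 823 of all 32851 promoters in the table (2.51%). The count depends on the exact base annotated as the start. The median log2 fold change, propyzamide over vehicle, was 0.23 over the 13 core genes with such a start and 0.09 over the 44 matched core genes without one, a description with no test.

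The libraries differed in the RNA of cell type markers before any gene of the family is considered. Total counts ranged from 1882235 to 2706885 in the propyzamide libraries and from 1573700 to 2258237 in the vehicle libraries. CPM below is a count relative to the TMM-adjusted size of its library. The summed CPM of all 8 smooth muscle markers was 5682, 8861 and 9787 in the propyzamide libraries and 504 and 3450 in the vehicle libraries, with vehicle replicate 1 the lowest and no overlap between the groups. Markers of colon epithelium were present in every library. All 10 epithelial markers summed to 6300 to 8459 CPM in the propyzamide libraries and to 5740 to 6837 CPM in the vehicle libraries. All 7 goblet cell markers summed to 719.6 to 6843 CPM in the propyzamide libraries and to 3171 to 9248 CPM in the vehicle libraries. These sums overlapped between the groups, and those of 4 other lists did not. All 7 colonocyte markers summed to 6379, 8486 and 9201 CPM in the propyzamide libraries, against 1752 and 3510 CPM in the vehicle libraries. All 6 adipocyte markers summed to 47.6, 103 and 303 CPM in the propyzamide libraries, against 9.93 and 18.2 CPM in the vehicle libraries. Both sums were higher in every propyzamide library, like the smooth muscle sum. Single markers need not follow their sum: edgeR called 1 of the 7 colonocyte markers higher and 1 lower at an adjusted p under 0.05. Of the 6 adipocyte markers 3 had enough counts to be tested, and edgeR called 2 higher and 0 lower. All 8 smooth muscle markers were tested and 0 were called. Over all genes tested 1.90% were called. The sums of the next lists were lower in every propyzamide library. All 6 neutrophil markers summed to 96.5, 32.3 and 23.1 CPM in the propyzamide libraries, against 103 and 326 CPM in the vehicle libraries. All 10 B and T lymphocyte markers summed to 2.72, 3.08 and 0 CPM in the propyzamide libraries, against 33.5 and 10.8 CPM in the vehicle libraries. Of these 2 lists, 1 neutrophil marker and 0 lymphocyte markers had enough counts to be tested, and 0 were called. The lymphocyte sums rest on low counts. The part of cell composition in the results on ribosomal protein genes was not tested. In RNA from whole tissue, fewer cells of a type and less RNA per cell cannot be told apart.

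As a family, the ribosomal protein genes took a similar part of the RNA in both groups. Leaving out mitochondrial and rRNA-like genes, the core genes held 4.80%, 4.15% and 3.98% of the counts in the 3 propyzamide libraries, and 5.13% and 3.97% in the 2 vehicle libraries. The 2 vehicle libraries were the highest and the lowest of the 5, so the groups overlapped completely. The mean share was 4.31% ± 0.428 in propyzamide (SD, n = 3) and 4.55% ± 0.823 in vehicle (SD, n = 2). The 95% Wilson interval of a single share, which covers counting error only, was 4.76% to 4.83% in propyzamide replicate 1 and 5.09% to 5.18% in vehicle replicate 1. In TPM, a unit that also corrects for transcript length, the core genes held 10.2% ± 1.20 in propyzamide (SD, n = 3) and 11.0% ± 1.85 in vehicle (SD, n = 2).

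Of the 86 members, 83 passed the filter on low counts. The other 3, Rpl3l, Rpl10l and Rpl39l, had at most 0.567 CPM in any library. No member passed an adjusted p of 0.05 by edgeR (quasi-likelihood fit, Benjamini-Hochberg adjusted over 12024 genes), where 229 genes (1.90%) did. Rps27l and Rps21 had an unadjusted p under 0.05. DESeq2 also called 0 members and gave 3 an unadjusted p under 0.05. Standard errors of the members' log2 fold changes ran from 0.32 to 0.63, so differences of the size seen in most members could not be told from 0 with 3 and 2 libraries.

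The 77 core genes were spread around a median log2 fold change of 0.09, with 47 positive and 30 negative values between -0.63 and 0.81 and an interquartile range from -0.11 to 0.29. The median over all 12024 genes was -0.02. The 1021 other genes with a mean level inside the range of the core genes had a median of 0.37. The 95% intervals of the core genes reached from -1.45 to 1.62 on the log2 scale, and all but that of Rps21 included 0. All 3 propyzamide libraries lay above both vehicle libraries in CPM for 20 of the 83 members tested (24.1%), against 16.7% of all genes. All 3 lay below both for 5 members (6.02%), against 20.8% of all genes. Among the 1021 other genes in the same range of level, 38.6% lay above and 9.70% below, so that the members' share of higher genes was above that of all genes and under that of genes of like level. Leaving out 1 library moved these counts. Without vehicle replicate 1, 40 members lay above (48.2%, against 28.4% of all genes) and 9 below (10.8%, against 31.4%). Without vehicle replicate 2, 28 lay above (33.7%, against 27.8%) and 20 below (24.1%, against 32.2%). Without propyzamide replicate 1, 22 lay above (26.5%, against 23.8%) and 16 below (19.3%, against 28.6%). Without propyzamide replicate 2, 23 lay above (27.7%, against 22.6%) and 9 below (10.8%, against 26.2%). Without propyzamide replicate 3, 27 lay above (32.5%, against 21.3%) and 5 below (6.02%, against 25.6%).

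**Figure D1:**
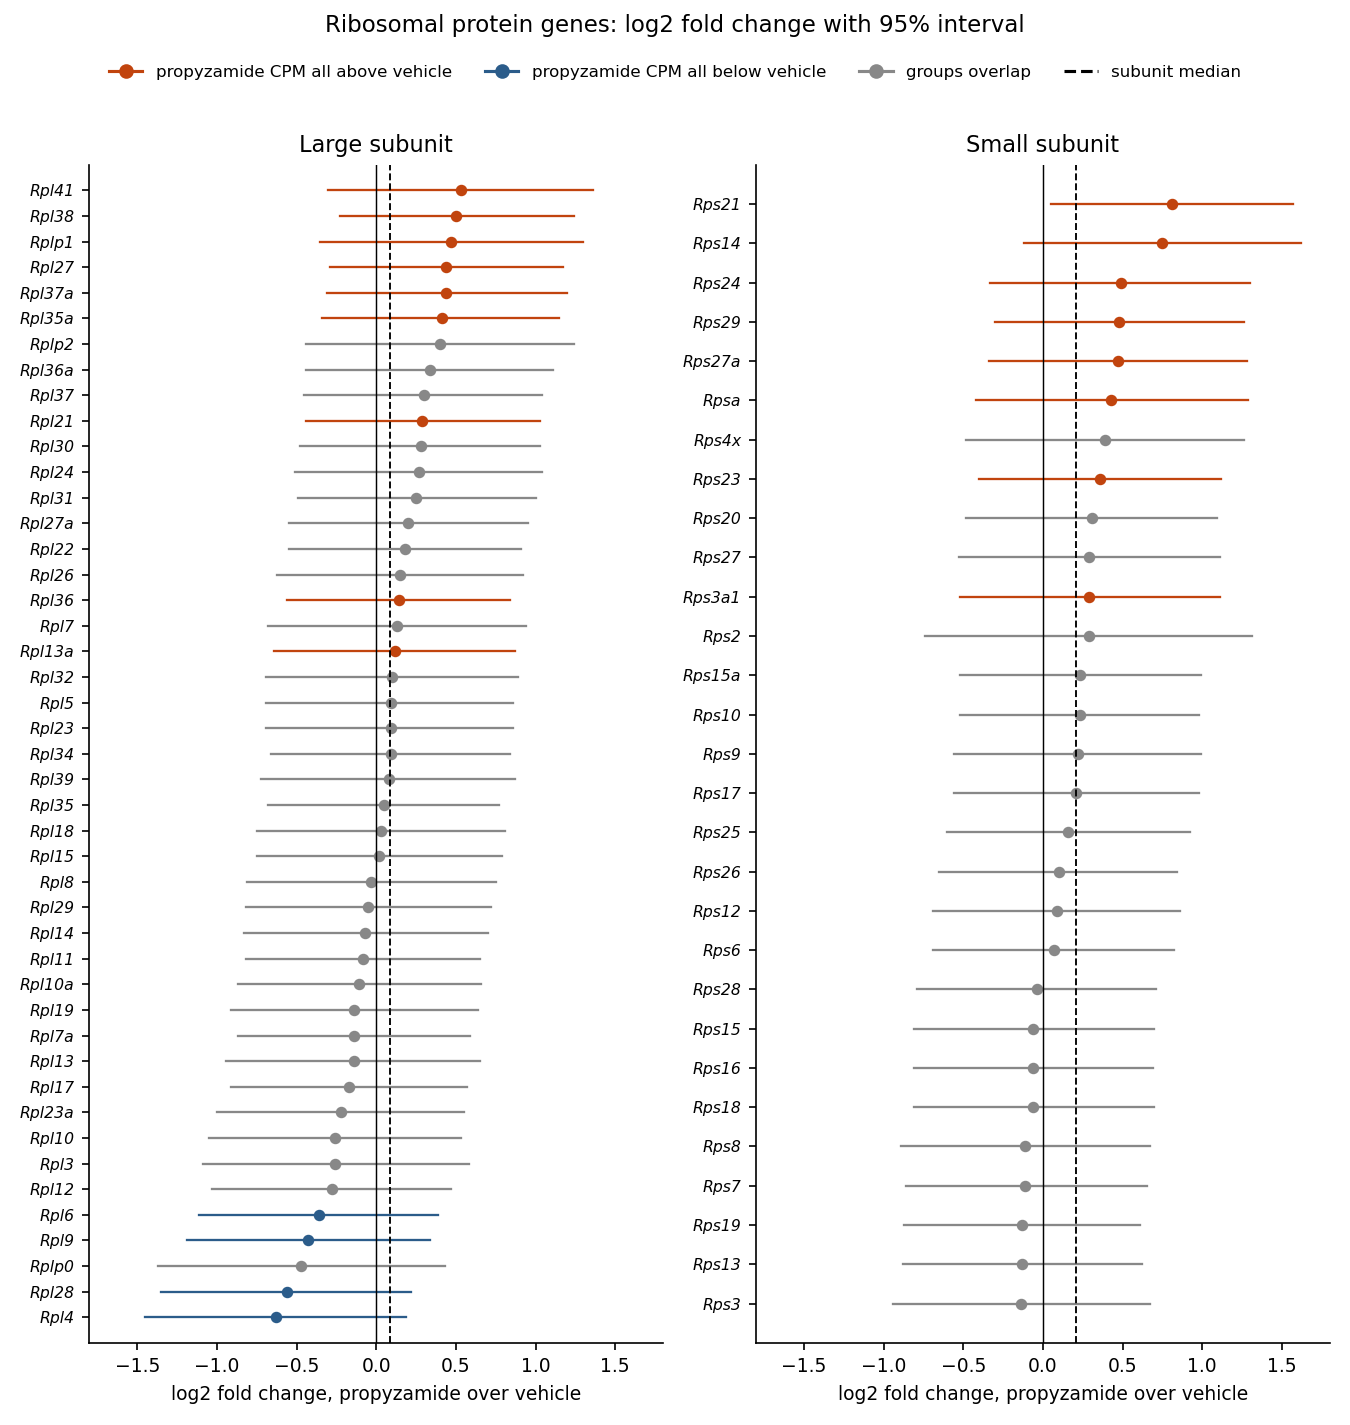
Log2 fold change, propyzamide over vehicle, of large-subunit genes (left) and small-subunit genes (right), from edgeR on all 5 libraries. Points are estimates, lines are 95% intervals, the dashed line is the median over all 46 genes (0.08) or all 31 genes (0.21) of the subunit, and colour marks genes whose 3 propyzamide CPM values all lie above or below both vehicle values. Nearly all intervals cross 0, and more genes carry the colour for higher than for lower values. Among other genes of like level, 38.6% lay above and 9.70% below. Over all genes these shares were 16.7% and 20.8%.

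Small-subunit genes lay slightly above large-subunit genes. Their median log2 fold change was 0.21 over 31 genes, and that of the 46 large-subunit genes was 0.08, a large-minus-small difference of -0.13. Summed over each subunit, small-subunit genes had 9542, 10008 and 9069 CPM in the propyzamide libraries, against 8896 and 7928 CPM in the vehicle libraries. The lowest propyzamide library was thus above the higher vehicle library by a small margin. In summed TPM the small-subunit genes overlapped between the groups. Those sums were 23607, 18639 and 15581 in the propyzamide libraries and 34384 and 14298 in the vehicle libraries. Large-subunit genes had 12117, 11741 and 10904 CPM in the propyzamide libraries, against 12372 and 10748 CPM in the vehicle libraries, and these ranges overlapped fully.

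The ratio of summed TPM, large over small subunit, was 1.18, 1.08 and 1.14 in the propyzamide libraries and 1.21 and 1.20 in the vehicle libraries. All 3 propyzamide ratios were below both vehicle ratios, with means of 1.14 ± 0.050 (SD, n = 3) and 1.20 ± 0.00602 (SD, n = 2). The same ratio in counts was 1.27, 1.17 and 1.20 in the propyzamide libraries and 1.39 and 1.36 in the vehicle libraries, again without overlap. No p is given for these sums over the members. The difference between the subunit medians kept its sign under every alternative tried, from -0.18 without vehicle replicate 2 to -0.06 with protein-coding transcripts only.

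**Figure D2:**
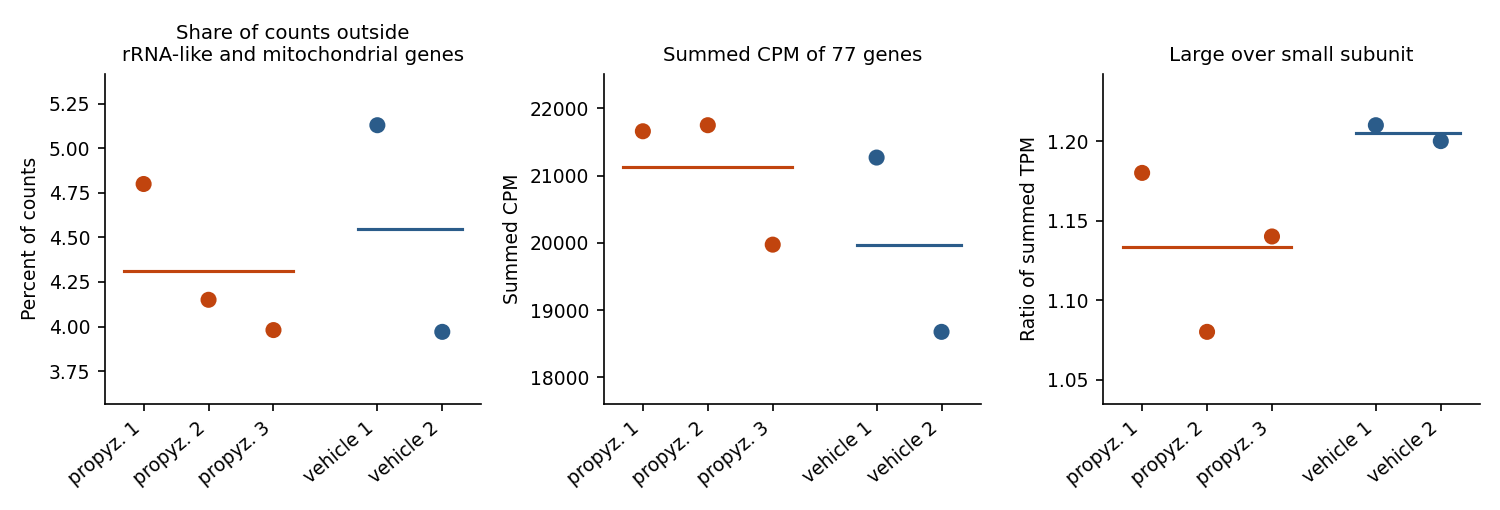
Values of the 77 core genes in each library, with propyzamide libraries in orange to the left of vehicle libraries in blue and horizontal lines at the group means; the axes do not start at 0. The share of counts (percent, left) and the summed CPM (centre) overlap between groups, and the ratio of summed TPM of large over small subunit (right) is 1.08 to 1.18 in the propyzamide libraries and 1.20 to 1.21 in the vehicle libraries.

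The highest small-subunit values belonged to proteins of the subunit's body. Rps21, a surface protein that in yeast is needed for late steps of small-subunit maturation, had 144, 211 and 179 CPM in the propyzamide libraries, against 108 and 95.3 CPM in the vehicle libraries. The groups did not overlap, and its log2 fold change of 0.81 (SE 0.35) had an adjusted p of 0.242 in edgeR's quasi-likelihood test. Rps14, a protein of the platform near the decoding region, had 414, 689 and 524 CPM in the propyzamide libraries, against 367 and 277 CPM in the vehicle libraries. Propyzamide replicate 2 was the highest and the groups did not overlap, with a log2 fold change of 0.75 (SE 0.40) and an adjusted p of 0.353 in the same test.

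The next genes by log2 fold change were Rps24, Rps29 and Rps27a. Rps24, mutated in some human patients with Diamond-Blackfan anaemia, had 288, 454 and 317 CPM in the propyzamide libraries, against 249 and 255 CPM in the vehicle libraries. Rps29, a small zinc-binding protein of the head, had 385, 424 and 359 CPM in the propyzamide libraries, against 262 and 296 CPM in the vehicle libraries. Rps27a, which is made as a fusion with ubiquitin, had 284, 398 and 269 CPM in the propyzamide libraries, against 259.7 and 197 CPM in the vehicle libraries. In all of them the propyzamide libraries lay above both vehicle libraries, by a narrow margin in Rps27a. Their log2 fold changes were 0.49 (SE 0.37), 0.48 (SE 0.36) and 0.47 (SE 0.37), and the smallest adjusted p, edgeR's quasi-likelihood test, was 0.532.

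Among the lower small-subunit values were those of Rps3, Rps19 and Rps13, with log2 fold changes of -0.14, -0.13 and -0.13 and groups that overlapped. Rps3, which lines the entry of the messenger RNA channel, turned to 0.27 without vehicle replicate 1, and Rps13 to 0.01 with an offset for transcript length.

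Rps6, the small-subunit protein that S6 kinases phosphorylate when growth signalling is active, had 293, 259.7 and 259 CPM in the propyzamide libraries, against 293 and 224 CPM in the vehicle libraries. The propyzamide values lay within the range of the vehicle values, and the log2 fold change was 0.07 with a 95% interval from -0.69 to 0.82. RNA levels carry no information on its phosphorylation.

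Among large-subunit genes the highest log2 fold changes were mostly those of small proteins. Rpl41, a very short basic peptide, had 718, 730.4 and 673 CPM in the propyzamide libraries, against 476 and 504 CPM in the vehicle libraries. Rpl38, whose loss in mice impairs translation of Hox messages, had 194, 194 and 208 CPM in the propyzamide libraries, against 121 and 159 CPM in the vehicle libraries. Neither gene's groups overlapped, and the log2 fold changes were 0.53 (SE 0.38) and 0.50 (SE 0.34).

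Rpl37a had 238, 224 and 238 CPM in the propyzamide libraries, against 143 and 201 CPM in the vehicle libraries. Rpl27 had 149.9, 168 and 147 CPM in the propyzamide libraries, against 128 and 100.4 CPM in the vehicle libraries. Both had a log2 fold change of 0.44 and groups that did not overlap. No adjusted p among these 4 large-subunit genes was under 0.479 in edgeR's quasi-likelihood test.

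The lowest large-subunit values belonged to Rpl4, Rpl28, Rplp0, Rpl9 and Rpl6. Rpl4, one of the longest ribosomal proteins, reaches into the exit tunnel. It had 354, 292 and 323 CPM in the propyzamide libraries, against 619.5 and 379 CPM in the vehicle libraries. The groups did not overlap and vehicle replicate 1 stood far above the rest; the log2 fold change was -0.63 (SE 0.38, adjusted p 0.413, edgeR) with all libraries and -0.25 without vehicle replicate 1. Rpl28 had 186, 103 and 129.7 CPM in the propyzamide libraries, against 187 and 226 CPM in the vehicle libraries. Its ranges nearly touched, and its log2 fold change was -0.56 (SE 0.36). Rpl9 and Rpl6 also lay below both vehicle libraries in every propyzamide library, with log2 fold changes of -0.43 and -0.36.

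The P stalk recruits the factors that drive elongation, and its 4 genes had values of both signs. Rplp1, one of its acidic arms, had 594, 604 and 627 CPM in the propyzamide libraries, against 394 and 482 CPM in the vehicle libraries. Rplp2, the partner of Rplp1 in the arm, had 231, 173 and 338 CPM in the propyzamide libraries, against 172 and 203 CPM in the vehicle libraries. Rplp0, the base of the stalk, had 701, 401 and 606 CPM in the propyzamide libraries, against 940.1 and 638 CPM in the vehicle libraries. Rplp1 was without overlap, Rplp2 and Rplp0 overlapped, and the log2 fold changes were 0.47 (SE 0.38), 0.40 (SE 0.39) and -0.47 (SE 0.42).

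Rpl12, which binds beside Rplp0, had a log2 fold change of -0.28. The smallest adjusted p of the 4 stalk genes in edgeR's quasi-likelihood test was 0.560. Rpl5 and Rpl11 assemble with the 5S rRNA and, when free, bind the p53 regulator Mdm2. Rpl5 had 151, 187 and 136 CPM in the propyzamide libraries, against 181 and 116 CPM in the vehicle libraries. Rpl11 had 168, 123 and 121 CPM in the propyzamide libraries, against 153 and 137 CPM in the vehicle libraries. Both overlapped, and their log2 fold changes of 0.09 and -0.08 changed sign in some alternatives.

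By place in the ribosome, the median log2 fold change was -0.05 over the 8 exit tunnel genes and -0.26 over the 3 genes beside the peptidyl transferase centre, Rpl3, Rpl8 and Rpl10. It was 0.23 over the 15 genes of the small subunit's body, 0.13 over the 12 of its head and 0.11 over the 4 at the messenger RNA entry and decoding site. Values within a place could be far apart, for example from -0.63 to 0.25 along the exit tunnel.

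Levels differed far more between genes than between groups. On the TPM scale Rpl41 was highest with a mean of 2026 over the 5 libraries, and Rplp1, of the same subunit, averaged 1612. In the small subunit Rps29 led with 1542, followed by Rps27 with 1422 and Rps28 with 1395. The lowest core genes, Rpl5 and Rpl35, both averaged 126 TPM, a 16.0-fold span, although ribosomes hold nearly all of these proteins in equal numbers.

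The order was largely shared between libraries. Rpl41 ranked first in TPM in 4 of the 5 libraries. The Spearman correlation of TPM over the 77 core genes ran from 0.78 to 0.94 between pairs of libraries, a description of genes that share annotation and length correction. It was 0.90 between the 2 vehicle libraries and 0.86 to 0.94 between propyzamide libraries. Between libraries of different groups it was 0.78 to 0.92. The lowest pair was propyzamide replicate 2 with vehicle replicate 1. Neighbours in the order, such as Rplp1 and Rps29, changed places between libraries.

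Large-subunit genes with longer messages tended to have lower log2 fold changes. Over the 77 core genes the Spearman correlation of log2 fold change with effective length was -0.36, and it was -0.54 over the 46 large-subunit and 0.01 over the 31 small-subunit genes. The points share libraries, so these are descriptions without a p. Without vehicle replicate 1 the correlation over the core genes was -0.05. The 25 longest core genes held 38.5%, 34.6% and 37.9% of the core counts in the propyzamide libraries, and 42.4% and 37.5% in the vehicle libraries. Vehicle replicate 1 was the highest of the 5, and its share over the mean of the other libraries correlated with length at 0.54.

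**Figure D3:**
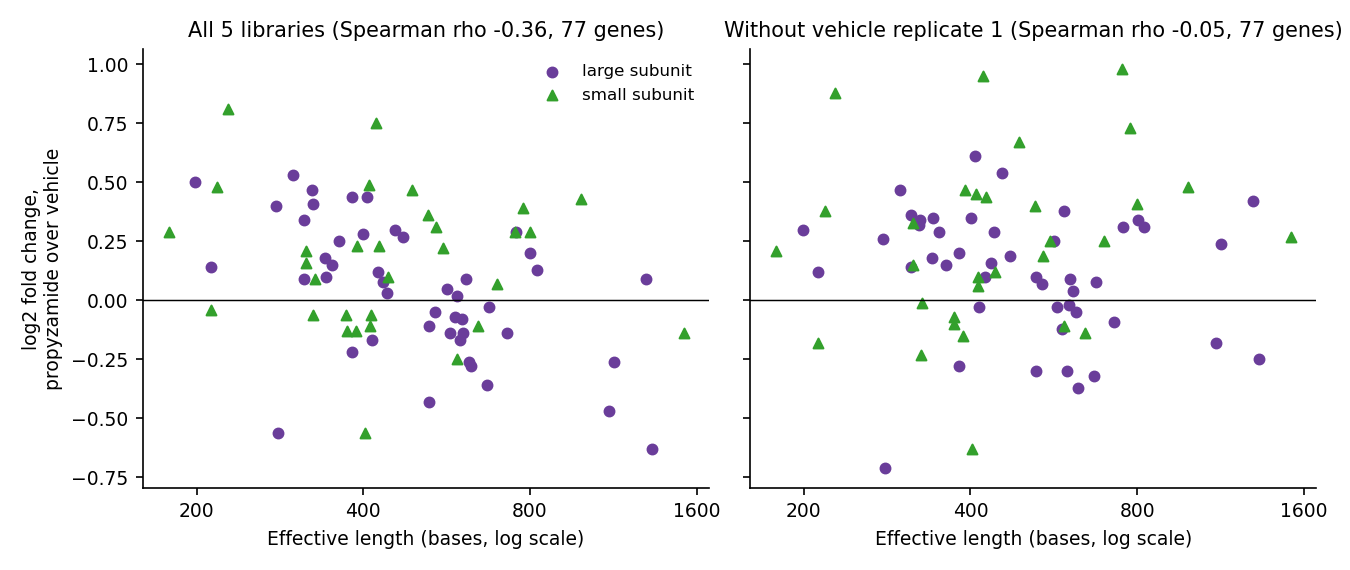
Log2 fold change, propyzamide over vehicle, against effective length in bases (log axis) for 46 large-subunit genes (circles) and 31 small-subunit genes (triangles). With all 5 libraries (left) the Spearman correlation is -0.36 over the 77 genes, -0.54 over the large-subunit and 0.01 over the small-subunit genes. Without vehicle replicate 1 (right) it is -0.05 over the 77 genes.

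Of the 8 paralogs, 5 had enough counts to be tested, and 3 of them (60%) lay above both vehicle libraries in every propyzamide library, against 16.7% of all genes and 38.6% of other genes at the level of the core genes. Rps27l, whose human counterpart is induced by p53, had 107, 115 and 102 CPM in the propyzamide libraries, against 67.4 and 43.7 CPM in the vehicle libraries. Its fold of 1.93 (log2 fold change 0.95, SE 0.35) was the largest of all members, with an unadjusted p of 0.0187 and an adjusted p of 0.174 in edgeR's quasi-likelihood test. Over the alternatives its log2 fold change ranged from 0.53 to 1.28, its adjusted p was never under 0.137, and it was called in none. Rps27, its parent, had 213, 377 and 248 CPM in the propyzamide libraries, against 219.6 and 238 CPM in the vehicle libraries, and overlapped.

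The start of the coding region is shown for Rps27 and its paralogs because it shows how far reads can tell the copies apart. Each line gives the first 75 coding bases from ATG (GENCODE M21, GRCm38), with bases that differ from Rps27 in capitals.
Rps27 (chr3:90212522-90213651, minus strand): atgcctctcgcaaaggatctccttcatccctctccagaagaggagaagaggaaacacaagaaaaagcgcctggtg
Rps27l (chr9:66946086-66949516, plus strand): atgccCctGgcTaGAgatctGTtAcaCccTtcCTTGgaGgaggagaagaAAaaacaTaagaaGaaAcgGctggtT
Rps27rt (chr9:114982366-114982739, minus strand): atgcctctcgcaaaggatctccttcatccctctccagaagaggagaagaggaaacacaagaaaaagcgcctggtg

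The coordinates are those of the whole genes. Rps27l differs from Rps27 at 61 of 255 coding bases (76.1% identity), and the longest identical stretch is 11 bases. Rps27rt, a retrogene, is identical to Rps27 over all 255 coding bases, so coding reads cannot tell the copies apart and its values are uncertain. It was listed at 37.7, 57.0 and 36.5 CPM in the propyzamide libraries, against 45.5 and 36.3 CPM in the vehicle libraries, with full overlap.

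Rpl22l1, the paralog that Rpl22 represses in mouse cells, had 86.3, 109 and 82.2 CPM in the propyzamide libraries, against 64.9 and 44.3 CPM in the vehicle libraries. The groups did not overlap, with a log2 fold change of 0.76 (SE 0.35) and an adjusted p of 0.282 in edgeR's quasi-likelihood test. It shares 66.9% of aligned coding positions with Rpl22, whose own log2 fold change was 0.18. Rpl36al, 87.9% identical to Rpl36a, had 167, 114 and 125 CPM in the propyzamide libraries, against 98.8 and 79.4 CPM in the vehicle libraries. It was without overlap too, with a log2 fold change of 0.60 (SE 0.35), and Rpl36a had 0.34.

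Rpl7l1, which in the files is the paralog with the longest messages and shares 53.0% of positions with Rpl7, had 24.8, 12.8 and 10.3 CPM in the propyzamide libraries, against 33.9 and 18.7 CPM in the vehicle libraries. Its groups overlapped and its log2 fold change was -0.70 (SE 0.48). It stood alone among the 5 tested paralogs in having a negative value. Rps19bp1, matched by symbol alone, had 3.59 to 9.52 CPM in the propyzamide libraries and 7.86 to 8.51 CPM in the vehicle libraries.

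**Figure D4:**
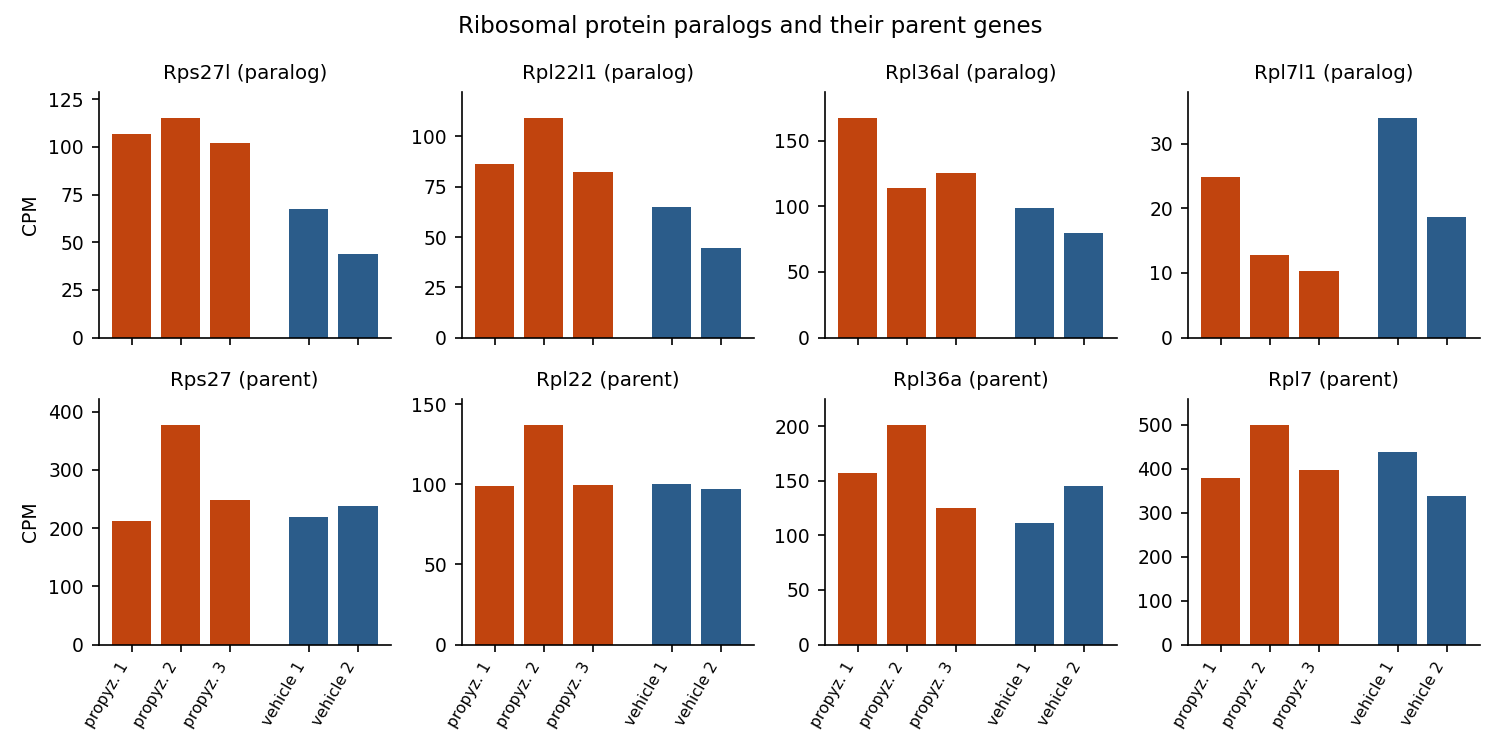
CPM of 4 paralogs (top row) and their parent genes (bottom row) in each library, propyzamide in orange to the left of vehicle in blue; bars start at 0 and each panel has its own scale. Rps27l, Rpl22l1 and Rpl36al are above both vehicle bars in every propyzamide library, while the parents and Rpl7l1 overlap.

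Transcript make-up was compared as the share of a gene's TPM in each transcript, for genes with at least 50 counts in every library. The groups lay at least 20 points apart without overlap for 2 of the members' 428 transcripts (0.467%), against 145 of 10264 transcripts of all genes (1.41%). Rpl22l1-209, a transcript with no annotated coding region, held 27.7%, 24.3% and 43.1% of Rpl22l1 TPM in the propyzamide libraries and was at 0 in both vehicle libraries. Rpl11-207, also without a coding region, was at 0 in all propyzamide libraries and held 28.7% and 29.5% of Rpl11 TPM in the vehicle libraries. Rpl22l1-209 had at most 60.5 estimated counts and Rpl11-207 at most 57.1. A 0 here is what the model that divided the reads assigned. With protein-coding transcripts only, the log2 fold change of Rpl22l1 was 0.30.

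Rps24 was singled out after its values were seen, for a short alternative exon at the end of its coding region that moves the stop codon. The exon has 18 bases (chr14:24494052-24494069, plus strand, GRCm38) and is present in 1 of the 12 annotated transcripts. The lines show the last 24 bases before the alternative junction and what follows, with the exon in capitals.
Rps24-205: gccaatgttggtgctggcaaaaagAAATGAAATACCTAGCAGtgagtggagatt
Rps24-202: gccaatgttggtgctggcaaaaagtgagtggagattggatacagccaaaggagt
Rps24-210: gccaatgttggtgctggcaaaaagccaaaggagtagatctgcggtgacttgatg

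The stop codon lies directly after the junction in Rps24-202, so that it encodes 130 residues. In Rps24-205 the exon adds the codon AAA before its own stop codon, for 131 residues. Rps24-210, without the exon, encodes 133. Rps24-205 held 11.3%, 40.8% and 29.8% of Rps24 TPM in the propyzamide libraries, against 0 and 14.0% in the vehicle libraries. Propyzamide replicates 2 and 3 were above both vehicle libraries and replicate 1 lay between them, so the groups overlapped. The estimated counts behind these shares were 80.3, 314 and 137 in the propyzamide libraries and 0 and 51.9 in the vehicle libraries. Rps24-201, which ends at the same stop codon as Rps24-202, held 25.1%, 18.3% and 17.5% in the propyzamide libraries, against 36.1% and 29.0% in the vehicle libraries, without overlap. The smooth muscle markers summed to 5682, 8861 and 9787 CPM in the propyzamide libraries, and to 504 and 3450 CPM in the vehicle libraries. For both measures propyzamide replicates 2 and 3 were the highest and vehicle replicate 1 the lowest, but the orders differed otherwise. The Rps24-205 share was higher in vehicle replicate 2 than in propyzamide replicate 1, and higher in propyzamide replicate 2 than in 3. The smooth muscle sum was lower in both cases. The colonocyte and adipocyte sums ranked the libraries as the smooth muscle sum did. The part of smooth muscle or other cell content in the Rps24-205 share was not tested.

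**Figure D5:**
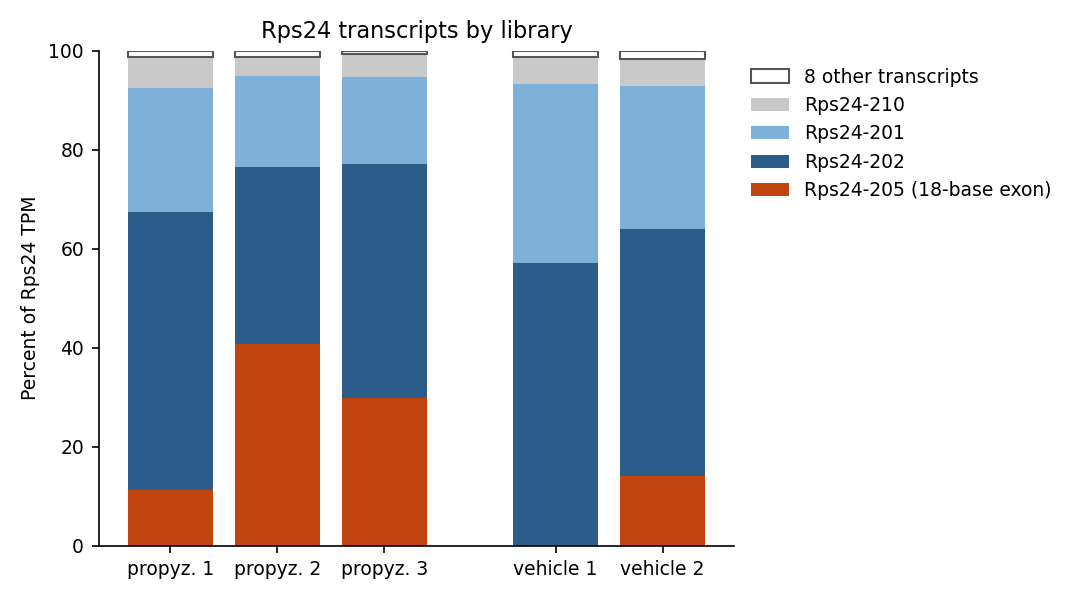
Percent of Rps24 TPM in each annotated transcript by library, propyzamide libraries to the left of vehicle libraries, stacked to 100. The transcript with the 18-base exon (bottom segment) takes 11.3% to 40.8% in the propyzamide libraries, is absent from vehicle replicate 1 and takes 14.0% in vehicle replicate 2.

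Transcripts of biotypes other than protein-coding were retained introns, targets of nonsense-mediated decay and processed transcripts. Together they held 17.0%, 16.2% and 15.3% of core TPM in the propyzamide libraries, and 15.8% and 17.4% in the vehicle libraries. The groups overlapped. The share was very uneven between genes. It was under 5% in every library for 32 of the 77 core genes and over 50% in every library for 10. Rps16, Rps20 and Rpsa were over 90% in every library, so that most of the TPM of these 3 genes was assigned to transcripts that the annotation does not call protein-coding.

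Ribosomal protein pseudogenes, most of them processed copies of these messages, numbered 300, of which 45 were tested. None was called, with a median log2 fold change of -0.06. Their summed counts were 5.45%, 5.09% and 4.73% of the core counts in the propyzamide libraries, and 6.90% and 5.65% in the vehicle libraries, with both vehicle libraries higher. Reads that fall within identical stretches are divided by the model, so pseudogene and parent counts are uncertain. The summed CPM of olfactory and vomeronasal receptor genes, which colon is not known to express much, was 115, 1353 and 479.7 in the propyzamide libraries, and 2123 and 1834 in the vehicle libraries, also higher in both vehicle libraries. Its part in the pseudogene share was not tested. Rpl14-ps1 and Rpsa-ps9 had the smallest p, with log2 fold changes of -1.25 (SE 0.59) and -2.34 (SE 1.13), an adjusted p of 0.284 or more in edgeR's quasi-likelihood test and at most 54.9 counts in a library. Rpl14-ps1 was at -0.31 without vehicle replicate 1, and Rpsa-ps9 at -1.68 without propyzamide replicate 1 and -3.49 without propyzamide replicate 3.

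Fau and Rack1 are ribosome members that the symbol rule misses. Fau, made as a fusion with a ubiquitin-like protein, had 291, 381 and 324 CPM in the propyzamide libraries, against 278 and 321 CPM in the vehicle libraries. Rack1, a signalling scaffold on the small subunit, had 302, 250.5 and 206 CPM in the propyzamide libraries, against 345 and 249.7 CPM in the vehicle libraries. Both genes overlapped, and their log2 fold changes of 0.15 and -0.23 changed sign in some alternatives.

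Lists of genes around the ribosome gave no called gene either. The 12 elongation factor and other TOP messages had a median log2 fold change of -0.23, with 4 positive and 8 negative values. Eef2, the translocation factor, had 446, 293 and 488 CPM in the propyzamide libraries, against 911 and 494 CPM in the vehicle libraries, a log2 fold change of -0.78 (SE 0.42) that was -0.29 without vehicle replicate 1. Eef1d, a subunit of the exchange factor, had -0.48 (SE 0.33). Of the 29 initiation factor genes 24 were positive and 5 negative, with a median of 0.30. Over all 12024 genes 5905 were positive and 6119 negative. The 1021 other genes at the level of the core genes had 735 positive and 286 negative values, with a median of 0.37. Eif4g2 and Eif4g1, scaffolds of initiation, had log2 fold changes of 0.82 (SE 0.36, adjusted p 0.247, edgeR) and 0.73 (SE 0.37). Eif4g2 was at -0.09 with limma on log2(TPM + 1).

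Ribosome biogenesis genes, 49 of 51 tested, had a median of -0.11, with 18 positive and 31 negative. Nop10, a core protein of the H/ACA particles that guide pseudouridylation, had 62.9, 72.4 and 50.5 CPM in the propyzamide libraries, against 32.3 and 23.8 CPM in the vehicle libraries. Its groups were well apart, with a log2 fold change of 1.14 (SE 0.37) and an adjusted p of 0.126 in edgeR's quasi-likelihood test. Snu13, which binds box C/D RNAs, had 0.96 (SE 0.43) and overlapped, with 1.58 without vehicle replicate 1 and 0.59 without vehicle replicate 2. The 19 genes of growth signalling to ribosome synthesis had a median of 0.00. Rps6ka3 and Rps6ka2, kinases of the RSK family, had log2 fold changes of 1.01 (SE 0.40) and -2.08 (SE 0.95), with adjusted p of 0.198 and 0.272 in the same test. Rps6ka2, with at most 20.9 counts in a library, was at -3.19 without propyzamide replicate 1.

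Mitochondrial ribosomal protein genes, which encode a separate ribosome, had a median of 0.19 over 78 genes, 45 positive and 33 negative. Mrpl20 had 67.0, 86.7 and 77.3 CPM in the propyzamide libraries, against 19.9 and 35.2 CPM in the vehicle libraries. The groups were far apart, with a log2 fold change of 1.49 (SE 0.39) and an adjusted p of 0.0614 in edgeR's quasi-likelihood test. Mrpl12 had 97.2, 89.3 and 101 CPM in the propyzamide libraries, against 48.8 and 32.3 CPM in the vehicle libraries. It was without overlap too, with a log2 fold change of 1.23 (SE 0.36) and an adjusted p of 0.0867 in the same test.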

How the data were processed

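RNA of 5 frozen colon pieces was made into SMART-Seq2 libraries, per the labels' protocols. The authors deposited RSEM tables with an estimated count and a TPM per transcript, per the file headers; the deposited FPKM and percent columns were not used. RSEM and kallisto, without versions, and GRCm38 are named per the submitters' processing notes. Whether counting used strand is not given in the sources used here, so antisense partners cannot be told apart. Members and lists were chosen with earlier results of these data known.

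Estimated counts were summed per gene, rounded and tested over all genes with edgeR 4.0.16 in R 4.3.3 (filterByExpr, TMM, quasi-likelihood test, group as the only term), tested on simulated data first. SEs come from the F statistic; CPM uses TMM sizes. GENCODE M21 held 99.6% of gene identifiers. Coding regions were aligned with Biopython 1.88. DESeq2 1.42.0 and limma 3.58.1 were alternatives. No molecular identifiers were used. The Wilson intervals of library shares cover counting error only. The intervals of log2 fold changes come from the edgeR SEs and also cover the spread between libraries. The text names the 5 highest and lowest log2 fold changes and the 3 highest mean TPM per subunit, the P stalk, the 5S particle, paralogs, Rps6, Fau and Rack1, members past the threshold (none), and 2 genes of smallest p per list. Effective lengths are means weighted by TPM over transcripts. Some genes that this rule names are not reported here.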

Additional observations from a re-analysis of the deposited data

How the results depend on the processing

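No member passed an adjusted p of 0.05 under any alternative. The median log2 fold change of the core genes, 0.09, was -0.03 with upper-quartile scaling, -0.31 with limma on log2(TPM + 1) and on log2(TPM + 0.1), 0.22 with no filter, -0.02 with at least 10 CPM in 2 libraries, -0.05 with protein-coding transcripts only, and 0.04 to 0.19 when 1 library was left out. The median of all genes moved with scaling, to -0.14 with upper-quartile scaling and to -0.39 and -0.47 with limma on TPM. Relative to it, the core genes were higher by 0.05 or more under every alternative except at least 10 CPM (-0.01) and protein-coding transcripts only (-0.02). The cause was not tested. In the main fit the 1021 other genes at the level of the core genes had a median of 0.37, above the 0.09 of the core genes. The subunit difference, -0.13, was -0.06 with protein-coding transcripts only and -0.18 to -0.09 when 1 library was left out. All genes called, 229, came to 565 with DESeq2, 490 with limma on log2(TPM + 1), 1327 with no filter, 148 with at least 10 CPM, 362 without rRNA-like and mitochondrial genes, 38 with protein-coding transcripts only, 657 at an adjusted p under 0.1, and 36 to 499 when 1 library was left out (36 or 55 with 1 vehicle library left out, and 499, 169 and 78 leaving out propyzamide replicates 1, 2 and 3). List genes called, 0, came to 2 with DESeq2 and with no filter (Mrpl20 and Mrpl12) and 2 with limma on log2(TPM + 1) (Rps6ka2 and Rpsa-ps9). The replicate block gave 639 genes, 0 members, 1 list gene (Mrpl20) and a subunit difference of -0.06. Its numbers are shared by the labels but not tied there to a litter, batch or day. Same-numbered deviations from the group means correlated at 0.170 and 0.147. The deviations of the 2 vehicle libraries from their mean mirror each other, so these values are not independent and cannot decide a pairing. Scaling to the summed core counts and counting pseudogenes with their parents were chosen after seeing the data; they gave core medians of 0.01 and 0.09. With SEs of 0.32 or more, small changes of single genes were not detectable at this depth and number of libraries.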
